A study of Mus musculus with 12 samples.

Results

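The genes followed here are 10 genes of copper and iron handling: Cp, Heph, Atp7a, Atp7b, Slc31a1, Slc31a2, Mt1, Mt2, Tfrc and Slc40a1. They were taken by symbol, with every probe set that the array annotation gives to that gene alone. The rule found 29 probe sets of 45101, and 26 once 3 control probe sets of Tfrc were set aside. The array annotation names 18193 genes with a probe set of their own. RNA was hybridized to 12 Affymetrix whole-genome mouse expression arrays. In cultured endothelial cells of the aorta, 2 arrays came from mice labelled Dscr-1;ApoE-KO, called double null here, and 2 from mice labelled ApoE-KO, called ApoE null. By these titles and genotype labels both aortic groups lacked ApoE. The design text of the series instead names Dscr-1 knockout mice as the aortic control, under which every aortic difference below would stand for loss of ApoE. The titles were followed. In liver, 2 arrays each came from double null (Dscr-1;ApoE-DKO), ApoE null, Dscr-1 null (Dscr-1-KO) and WT mice. All were adult C57BL/6J mice, the aortic cells were kept in culture for several days before RNA extraction, and the liver mice are labelled as fed HFD over 12 weeks, although the text of the study speaks of normal chow for its arrays. Dscr-1, encoded by Rcan1, is a feedback inhibitor of calcineurin, the phosphatase that activates NFAT transcription factors, and ApoE is the protein by which lipoprotein remnants are taken up in liver.

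Copper enters cells through the transporter Slc31a1, is handed by chaperones to the pumps Atp7a and Atp7b, and is stored on the metallothioneins Mt1 and Mt2. Ceruloplasmin, the product of Cp, is the main copper protein of plasma. It is made mostly by hepatocytes, which load it with copper through Atp7b, and it belongs to the acute phase proteins whose output rises in inflammation. As a ferroxidase, ceruloplasmin oxidizes the iron that ferroportin, the product of Slc40a1, lets out of cells. Hephaestin (Heph) does the same at the membrane, and the transferrin receptor (Tfrc) takes iron up.

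Liver values are linear MAS5 signals scaled by the authors to an average of 100 on each array, and aortic values are log2 values of unknown normalization. The 2 tissues were therefore fitted apart, and no level of one was set against the other. Probe sets brighter than the array median on 2 or more arrays of a tissue were tested, which kept 20 of the 26 member probe sets in aortic cells and 23 in liver. Of the 20 in aortic cells, 19 were above the median on every array. Heph in liver and Atp7b in aortic cells had no probe set above this filter, so 9 of the 10 genes were tested in each tissue. The series describes 2 independent experiments without saying that the aortic cells of each came from separate mice, so that p-values reflect no more than array-to-array spread, which may be technical. Among the arrays 2 stood apart. Double null aortic array 2 had a mean correlation with the other aortic arrays of 0.965 across probe sets, against 0.980 to 0.982 for the other 3, and ApoE null liver array 1 had one of 0.835, against 0.873 to 0.883 for the other 7. Apoe itself gave liver signals of 79.8 to 305 on the arrays labelled as lacking ApoE and 19937.4 to 21510.3 on the other 4. In aortic cells its log2 value was 8.29 and 6.69 on the double null arrays, against 7.27 and 7.17 on the ApoE null arrays, all above the array medians, and no array of a mouse with ApoE was there to set them against. Rcan1 was not lower on the aortic arrays labelled double null (10.09 and 10.26) than on those labelled ApoE null (9.99 and 9.92). The position of its probe sets in the deleted allele is unknown here, so this is no check of the genotype, and directions drawn from Dscr-1 loss rest on the labels. Endothelial identity was checked against 12 markers, all of which lay above the median on all 4 aortic arrays. In double null cells 5 of the 12 were higher and 7 lower, with a median difference of −0.10 on the log2 scale. Without overlap 3 were higher and 5 lower, as were 15.8% and 14.1% of all probe sets. Their summed level was lowest on double null array 2 (23607, against 27474 to 28380 on the other aortic arrays).

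Ceruloplasmin RNA was higher in double null than in ApoE null aortic endothelial cells on every one of its 8 probe sets. By its brightest probe set (1417494_a_at) the log2 value was 9.66 and 11.62 on the double null arrays, against 8.31 and 8.48 on the ApoE null arrays. The ApoE null arrays lay close together, and the double null arrays both lay above them but differed from one another by more than the lower one differed from ApoE null. The difference was 2.25 on the log2 scale, with a standard error of 0.64 and a 95% interval of 0.58 to 3.91, or 4.75-fold (unadjusted p = 0.0180, adjusted p = 0.905 from limma, n = 2 each). Cp therefore did not pass over all 22927 probe sets tested. The median difference of all of them was −0.01 on the log2 scale.

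The aortic arrays were made in 2 runs with 1 array of each genotype, so that the difference can also be read within a run. It was 1.35 in run 1 and 3.14 in run 2 on the log2 scale, or 2.56-fold and 8.83-fold. With the run as a block, Cp did not pass either (unadjusted p = 0.0184, adjusted p = 0.791). The double null array of run 2 is the one that stood apart. Without it the difference of Cp was 1.27 (adjusted p = 2.45e-05), and without the double null array of run 1 it was 3.23 (adjusted p = 1.28e-15). In these fits the lone double null array was assumed to vary as little as the 2 ApoE null arrays do, and they called 793 and 3989 of all probe sets, against 6 with all 4 arrays. Without either ApoE null array Cp did not pass.

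Other probe sets of Cp followed the same order of arrays. Probe set 1417495_x_at had 9.29 and 11.32 in double null cells, against 8.03 and 8.11 in ApoE null cells. Probe set 1455393_at had 7.79 and 9.91, against 6.47 and 6.43, and 1448734_at had 8.70 and 10.90, against 7.51 and 8.01, in the same cells. In all 3 the double null array of run 2 was the highest by about the same margin. The dimmer sets 1417496_at (6.21 and 7.36 in double null, 4.86 and 4.65 in ApoE null cells), 1448735_at (5.90 and 6.74, against 4.67 and 4.71) and 1417497_at (5.39 and 5.46, against 4.55 and 4.52) gave smaller differences that also left the groups apart. The last of these had the most even pair of runs, at 0.83 and 0.94 on the log2 scale. The dimmest, 1441326_at, lay below the medians of all 4 arrays and was not tested (2.87 and 4.14 in double null, 2.79 and 2.56 in ApoE null cells).

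**Figure D1:**
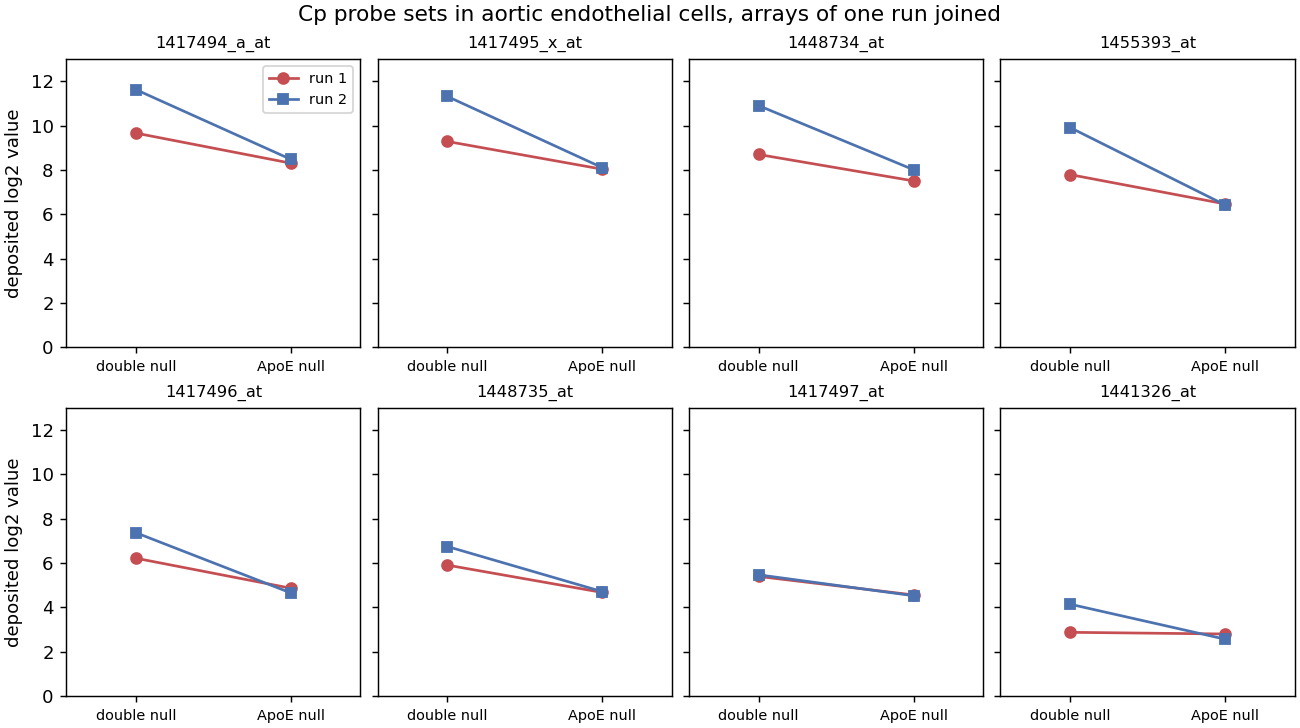
Deposited log2 values of the 8 Cp probe sets in aortic endothelial cells, from the brightest to the dimmest, with double null on the left and ApoE null on the right of each panel and lines joining the 2 arrays of a run. Every line falls toward ApoE null, and for the brightest probe set the values are 9.66 and 11.62 in double null cells and 8.31 and 8.48 in ApoE null cells.

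Of the 8 Cp probe sets, 8 had both double null arrays above both ApoE null arrays. This order held for 15.8% of all probe sets tested. The 7 tested differed by 0.89 to 2.40 on the log2 scale, each at an unadjusted p under 0.05 (0.00178 to 0.0400), which 2.46% of all probe sets reached in this direction. Their adjusted p ranged from 0.613 to 1, so 0 of 7 passed. In 6 of the 8 sets the difference was over 1 on the log2 scale in both runs, as in 61 of all 22927 probe sets (0.266%). The 8 probe sets read the same RNA on the same 4 arrays and are not separate evidence.

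Cp lies on chromosome 3 at 19956933 to 20009750 (GRCm38.p6) and has 2 promoter windows in RefSeq. A window of Cp is shown because Cp has the largest difference of the 10 genes in aortic cells and because NFAT is the factor that Dscr-1 restrains. The one printed is that of the second start, at chr3:19956999-19957248 on the plus strand, which lies within the annotated span of the gene. Capitals mark every match to the NFAT core, GGAAA on either strand, and to the core of the metal response element, TGCACNC or TGCGCNC on either strand.
Cp promoter: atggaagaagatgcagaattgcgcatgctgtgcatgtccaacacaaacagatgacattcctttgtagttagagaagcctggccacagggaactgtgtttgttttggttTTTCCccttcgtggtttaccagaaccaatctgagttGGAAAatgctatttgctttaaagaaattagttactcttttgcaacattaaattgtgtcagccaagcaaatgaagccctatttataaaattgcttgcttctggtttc
It holds 2 NFAT cores, as 21.4% of 32841 promoter windows of 250 bases do with at least 2, and 0 metal response cores, where 21.4% hold at least 1. The window of the first start, at chr3:19956804-19957053, is not printed and holds fewer matches. It has 1 NFAT core, where 55.6% of windows hold at least 1, and 0 metal response cores. A match is a run of letters and not a bound site.

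The metallothioneins, which bind zinc and copper and are induced by metals and stress, both lay higher in double null aortic cells by their brighter probe set, Mt2 by the second largest difference of the 10 genes. Mt2 had log2 values of 8.89 and 10.39 in double null cells, against 7.88 and 8.12 in ApoE null cells. As with Cp, both double null arrays were above both ApoE null arrays and the run 2 array was the highest. Its difference was 1.64 (standard error 0.51, 95% interval 0.33 to 2.95, unadjusted p = 0.0234, adjusted p = 0.978 from limma), with 1.01 in run 1 and 2.28 in run 2. Mt1 by its brighter probe set had 11.01 and 11.33 in double null and 10.65 and 10.69 in ApoE null cells. That is a smaller difference of 0.50 (standard error 0.18, unadjusted p = 0.0362, adjusted p = 1), also with no overlap. The dimmer Mt1 probe set, 1451612_at, ran the other way and overlapped, with 4.33 and 4.73 in double null and 4.94 and 4.58 in ApoE null cells. Without double null array 2, Mt2 differed by 0.89 (adjusted p = 0.00380) and Mt1 by 0.34 (adjusted p = 0.708). Without double null array 1, Mt2 differed by 2.40 (adjusted p = 5.37e-12) and Mt1 by 0.66 (adjusted p = 0.0156), with the same assumption on the lone array. The brighter Mt1 set carries the suffix that Affymetrix gives to sets which can read related transcripts, so its signal cannot be assigned to Mt1 alone.

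Mt1 and Mt2 lie 5315 bases apart on chromosome 8 (GRCm38.p6), Mt2 at 94172618 to 94173567 and Mt1 at 94178883 to 94180327. Their promoter windows are printed because the 2 genes lay higher on the same arrays and because metal response elements are what they are known for. The capitals mark the same motifs as for Cp, and in no window of the 10 genes did a match of one motif overlap a match of the other.
Mt2 promoter (chr8:94172368-94172617, plus strand): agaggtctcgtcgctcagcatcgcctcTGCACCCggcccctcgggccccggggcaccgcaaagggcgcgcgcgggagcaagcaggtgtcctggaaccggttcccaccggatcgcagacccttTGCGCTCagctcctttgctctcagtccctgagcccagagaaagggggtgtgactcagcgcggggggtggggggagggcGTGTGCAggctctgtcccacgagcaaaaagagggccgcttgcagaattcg
Mt1 promoter (chr8:94178839-94179088, plus strand): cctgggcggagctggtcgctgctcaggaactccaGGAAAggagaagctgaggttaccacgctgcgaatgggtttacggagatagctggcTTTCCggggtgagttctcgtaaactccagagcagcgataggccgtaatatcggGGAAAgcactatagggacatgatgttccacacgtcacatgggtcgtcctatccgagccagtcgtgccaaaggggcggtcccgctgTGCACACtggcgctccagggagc
The Mt2 window holds 3 metal response cores, a number that 1.26% of promoter windows reach, and 0 NFAT cores. The Mt1 window holds 1 metal response core and 3 NFAT cores, which 21.4% and 6.39% of windows reach. It precedes a start that lies within the annotated span of Mt1, so most of the window is inside that span. The count is that of this window and not of all the sequence upstream of Mt1.

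The iron export genes Heph and Slc40a1 were also higher, by less than Cp and Mt2. Heph, the membrane ferroxidase, had 6.76 and 7.25 in double null cells, against 6.42 and 6.29 in ApoE null cells, a difference of 0.65 (standard error 0.22, unadjusted p = 0.0297, adjusted p = 1 from limma). Without double null array 1 it was 0.90 (adjusted p = 0.000933), and without double null array 2, the one that stood apart, it was 0.41 (adjusted p = 0.493). Slc40a1, the iron exporter ferroportin, had 10.26 and 10.16 in double null and 9.77 and 9.81 in ApoE null cells. For both genes the groups did not overlap. The difference of Slc40a1 was 0.42 (standard error 0.15, unadjusted p = 0.0360, adjusted p = 1) and, unlike that of Cp, was larger in run 1 (0.49) than in run 2 (0.35). The other Slc40a1 probe set had 8.05 and 7.73 against 7.53 and 7.49 in the same cells, a difference of 0.38.

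Copper uptake, the copper pumps and iron uptake did not separate the aortic genotypes. Slc31a1, the copper importer of the cell surface, had 8.35 and 8.14 in double null and 8.27 and 8.28 in ApoE null cells, with a difference of −0.03 and a 95% interval of −0.44 to 0.38. Its homologue Slc31a2, found on intracellular membranes, had 8.27 and 8.08 against 8.13 and 7.98, a difference of 0.12 (−0.30 to 0.53). Atp7a, the copper pump of most tissues, had 10.62 and 10.34 against 10.32 and 10.51, a difference of 0.06 (−0.40 to 0.53). Tfrc had 9.68 and 9.93 against 9.81 and 9.66, a difference of 0.06 (−0.37 to 0.50). In each of these 4 genes the arrays of the genotypes overlapped. Atp7b, the copper pump of hepatocytes, was dim, at 3.03 to 4.25 over its 3 probe sets and 4 arrays.

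**Figure D2:**
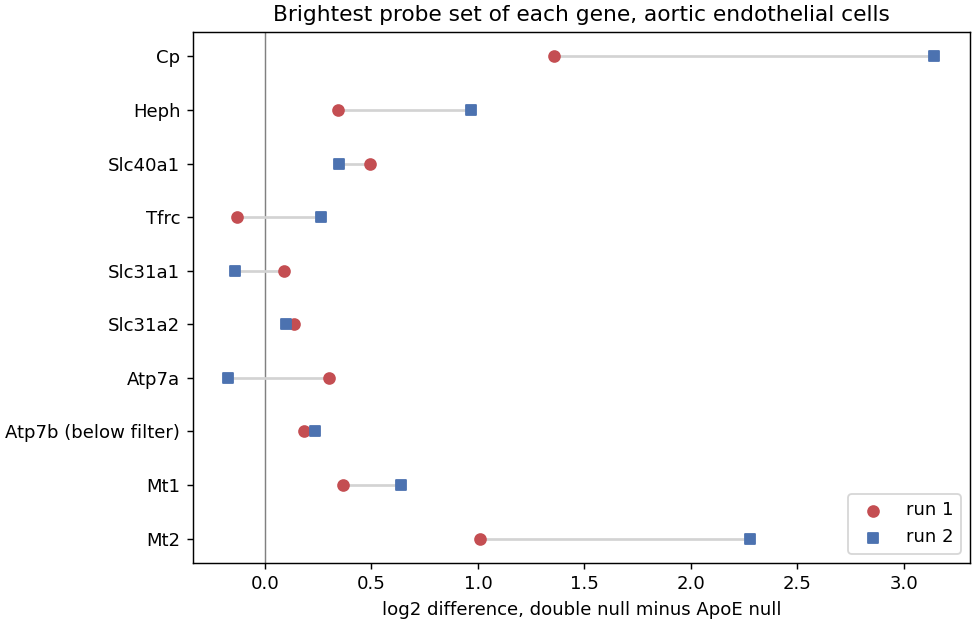
Log2 difference of double null minus ApoE null cells within each run of the aortic arrays, for the brightest probe set of each gene. Cp (1.35 and 3.14) and Mt2 (1.01 and 2.28) lie farthest to the right in both runs, while Tfrc, Slc31a1 and Atp7a have runs on either side of 0.

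Over the 9 genes tested in aortic cells, 8 were higher and 1 lower in double null cells, with a median difference of 0.42 on the log2 scale, where 47.7% of all probe sets were higher. At an unadjusted p under 0.05, 5 genes were higher (Cp, Heph, Mt1, Mt2 and Slc40a1) and 0 lower. Over probe sets these were 11 of 20, with 7 of the 11 being Cp, where 2.46% of all probe sets were higher at this p. The count was 3 without either ApoE null array, 10 and 12 without double null array 1 and 2, and 2 by the methods' test. With the run as a block the count was again 11 higher and 0 lower, where 2.67% of all probe sets were higher and 3.26% lower. By the adjusted p, 0 of 20 passed, where 0.0131% of all probe sets passed in this direction. The 10 genes were chosen with earlier results of these data known, and the study itself had named Cp in the aorta. These counts, and those in liver below, are therefore a description and no test of the list against all probe sets.

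The arrays also differed in genes of other cell types and of inflammation. Of 12 macrophage markers 5 lay above the median, and the summed level of the 12 (2 to the power of the log2 value) was 2711 and 3851 on the double null arrays, against 2018 and 1840 on the ApoE null arrays, with Lyz2, lysozyme, at 7.46 and 9.47 against 5.33 and 5.48. The others, Adgre1, Itgam, Aif1, Fcgr1, Mpeg1, Cd5l and Marco, lay below the median on all 4 arrays. The 5 tested were Lyz2, Cd68, Csf1r, Clec4f and Lgals3, with a median difference of 1.24. Of these 4 were higher in double null cells without overlap, as were 15.8% of all probe sets, and 1 was lower. By the adjusted p, 0 passed. The sum over 10 fibroblast markers was 12109 and 11891 in double null and 6235 and 6051 in ApoE null cells. Most of each sum came from Dcn, decorin. Of the 9 fibroblast markers tested, 7 were higher in double null cells and 2 lower. Without overlap 2 were higher, and by the adjusted p 0 passed. Dcn was higher on both double null arrays (12.79 and 13.09, against 12.02 and 12.02). Col3a1, a collagen, was highest on double null array 1 (8.82) and lowest on array 2 (5.03), against 7.24 and 7.04. The sum over 8 smooth muscle markers was higher on double null array 1 alone (6173, with 2087 on array 2, against 2668 and 2531). Of the 5 smooth muscle markers tested, 4 were higher in double null cells and 1 lower, with a median difference of 0.42. Without overlap 2 were higher and 0 lower, and by the adjusted p 0 passed. The sum over 19 acute phase genes, which do not include Cp, was 1052 and 7993 in double null and 716 and 866 in ApoE null cells, with Lcn2 at 7.68 and 12.77 against 7.13 and 7.40. Most of the 7993 came from Lcn2 alone. Of the 19 genes 4 to 6 lay above the median on an array. The 5 tested were all higher in double null cells, with 0 at an unadjusted p under 0.05 by limma. Alb, the hepatocyte albumin gene, lay below the median on all 4 arrays (3.54 to 3.95). The part of these genes in the differences of Cp, Mt2, Heph and Slc40a1 was not tested. In bulk RNA, more cells of one type and more RNA per cell cannot be told apart.

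**Figure D3:**
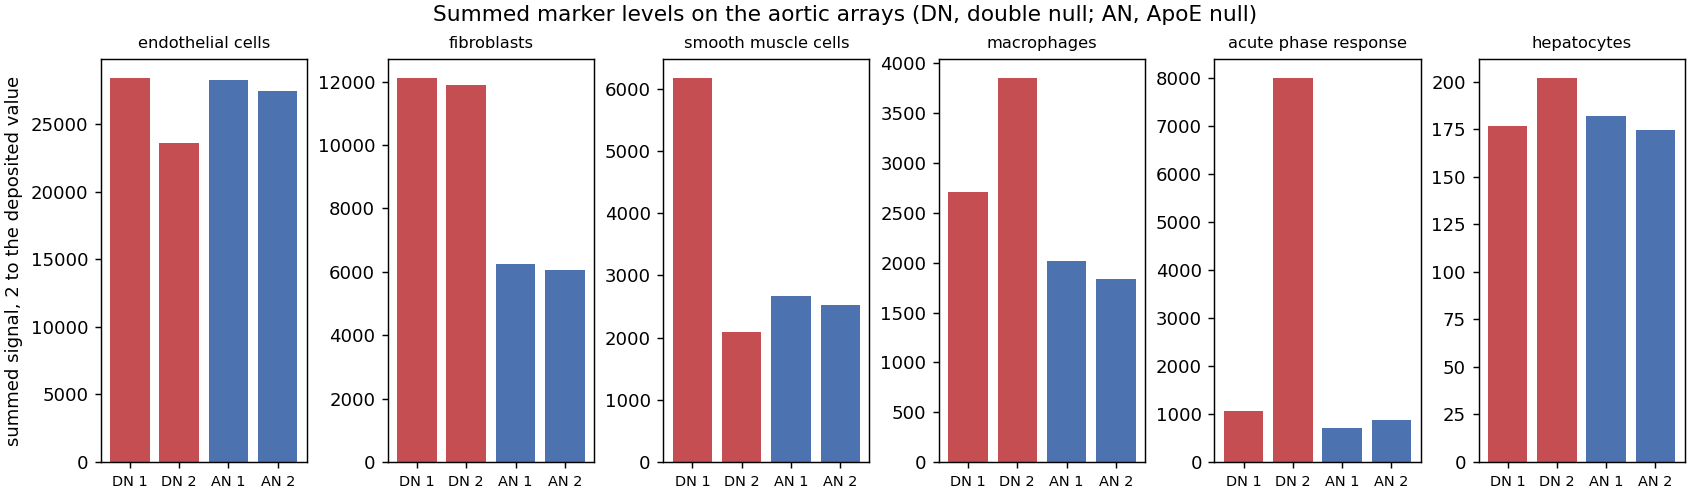
Summed marker levels, as 2 to the power of the deposited log2 value, on the 4 aortic arrays for 6 marker lists, with double null (DN) left of ApoE null (AN). Macrophage and fibroblast sums are higher on both double null arrays, and most of each fibroblast sum comes from Dcn. Endothelial sums run from 23607 on double null array 2 to 28380 on double null array 1. The acute phase sum is 7993 on double null array 2 alone, most of it from Lcn2.

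The genes whose pattern over the 4 aortic arrays lay nearest to that of Cp were Sh2d5, Clec4d, Wfdc17, Rgs16 and Il6. Likeness was measured as the root mean square distance between profiles centred on their own mean, which was 0.11 to 0.30 for these 5 on the log2 scale and 1.34 for the median of 11646 genes. Sh2d5, an SH2 domain protein, had 6.04 and 7.96 in double null and 4.75 and 4.63 in ApoE null cells. Il6, the cytokine that induces acute phase proteins in liver, had 6.27 and 8.39, against 5.25 and 4.63. Clec4d, a C-type lectin of myeloid cells, had 7.73 and 9.93, against 6.77 and 6.81. With 4 arrays such a profile has few degrees of freedom, and none of the 5 passed the test between genotypes (adjusted p = 0.745 to 1 from limma).

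In liver, none of the 10 genes passed in any of the comparisons, and the gene with the widest separation was Slc31a2. Its brighter probe set, 1416654_at, had MAS5 signals of 107.0 and 118.8 in double null livers, 12.7 and 9.7 in ApoE null livers, 64.1 and 58.5 in Dscr-1 null livers and 49.5 and 44.9 in WT livers. The 4 genotypes kept this order without overlap, double null first and ApoE null last, and the arrays of each genotype lay close together. Between double null and ApoE null livers the difference was 2.25 on the scale of log2 of the signal plus 16 (standard error 0.34, 95% interval 1.46 to 3.03, 4.74-fold on that scale, unadjusted p = 0.000174, adjusted p = 0.586 from limma). An adjusted p of 0.586 is the lowest that any of the 32005 probe sets had in this comparison. Other probe sets shared this value, so it does not rank Slc31a2 first among them.

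Both ApoE null signals of Slc31a2 were under their arrays' medians of 44.7 and 32.8, so the low end of this difference is dim. With an offset of 1 the difference was 3.23 (adjusted p = 0.287) and with one of 64 it was 1.23 (adjusted p = 0.815). Against WT, ApoE null livers differed by −1.22 (standard error 0.34, unadjusted p = 0.00711, adjusted p = 0.608) and double null livers by 1.03 (unadjusted p = 0.0163, adjusted p = 0.694). Dscr-1 null livers differed from WT by 0.29 (unadjusted p = 0.415). The interaction, which asks whether Dscr-1 loss acts differently with and without ApoE, was 1.95 (standard error 0.48, unadjusted p = 0.00359, adjusted p = 0.755). Leaving out ApoE null array 1, which stood apart, gave 2.32 between double null and ApoE null livers (adjusted p = 0.764).

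The other probe set of Slc31a2 was dim and gave a different order. Probe set 1453721_a_at had 34.1 and 9.0 in double null, 10.4 and 2.6 in ApoE null, 35.2 and 45.7 in Dscr-1 null and 30.1 and 19.3 in WT livers, and was below the filter. It was lowest in ApoE null livers too, but its double null arrays overlapped with those of ApoE null and WT livers and both lay below those of Dscr-1 null livers. The neighbouring gene Slc31a1, with 62170 bases between them on chromosome 4, had 494.7 and 599.9 in double null, 361.6 and 392.3 in ApoE null, 478.2 and 598.9 in Dscr-1 null and 474.1 and 545.9 in WT livers. Its ApoE null arrays were likewise the lowest, with a difference of −0.42 from WT (unadjusted p = 0.269, adjusted p = 0.897), and its other probe set did not show this (253.5 and 443.0 in ApoE null, 282.9 and 313.5 in WT livers).
Slc31a2 promoter (chr4:62286179-62286428, plus strand): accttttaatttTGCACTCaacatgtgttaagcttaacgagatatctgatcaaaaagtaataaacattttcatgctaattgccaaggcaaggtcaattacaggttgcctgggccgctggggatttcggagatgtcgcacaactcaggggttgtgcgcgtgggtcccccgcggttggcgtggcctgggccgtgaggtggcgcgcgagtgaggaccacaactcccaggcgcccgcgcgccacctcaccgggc
The window is shown because Slc31a2 carried the lowest p of the 10 genes in liver. It precedes a start that lies within the annotated span of the gene, 62280393 to 62298412 on chromosome 4. It holds 1 metal response core, in capitals, and 0 NFAT cores.

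**Figure D4:**
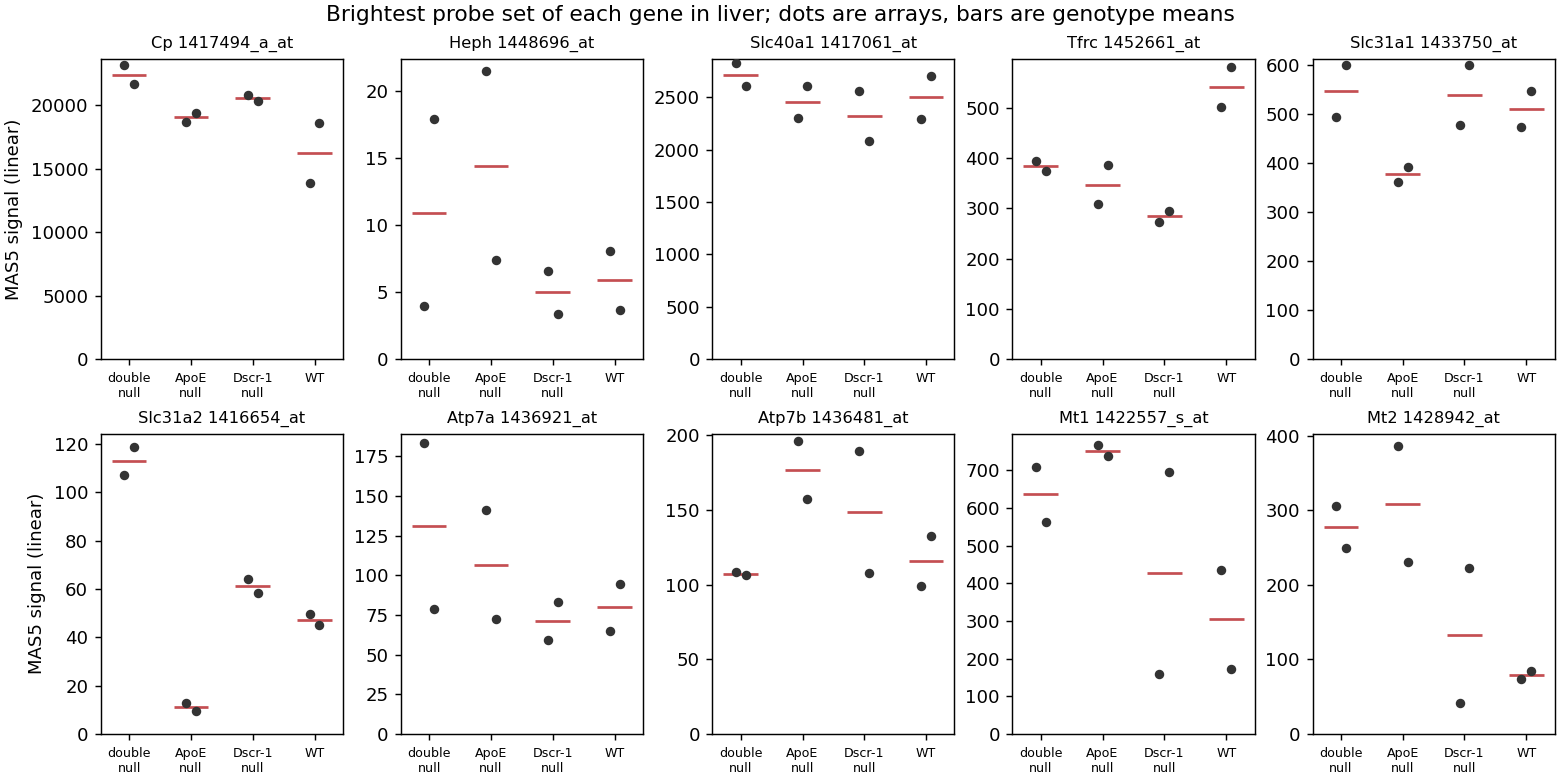
MAS5 signals of the brightest probe set of each gene in liver on linear axes that start at 0, with a dot per array and a bar for the mean of each genotype. Slc31a2 separates all 4 genotypes, from 107.0 and 118.8 in double null to 12.7 and 9.7 in ApoE null livers, and Tfrc is lower in each mutant than in WT.

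The metallothioneins were higher in livers without ApoE. Mt2 had signals of 306.6 and 249.5 in double null and 385.9 and 230.8 in ApoE null livers, all above the 73.4 and 84.0 of WT livers, while the 2 Dscr-1 null livers differed from one another (42.0 and 223.1). Against WT the difference was 1.63 in double null livers (standard error 0.64, unadjusted p = 0.0356, adjusted p = 0.781 from limma) and 1.74 in ApoE null livers (unadjusted p = 0.0276, adjusted p = 0.710). Mt1 was likewise higher on all 4 arrays without ApoE than on the WT arrays, with 709.5 and 562.3 in double null, 767.0 and 737.6 in ApoE null, 159.9 and 696.8 in Dscr-1 null and 436.5 and 171.6 in WT livers. Its WT livers were more unlike, and its differences of 1.15 and 1.40 in double null and ApoE null livers had unadjusted p = 0.135 and 0.0787. Within the Dscr-1 null pair both metallothioneins were high on array 2. Between double null and ApoE null livers the differences were −0.11 for Mt2 (95% interval −1.59 to 1.38) and −0.25 for Mt1 (−1.85 to 1.36), intervals too wide to set a size.

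For ceruloplasmin no liver difference passed. Its brightest probe set had 23146.5 and 21622.0 in double null, 18697.3 and 19352.5 in ApoE null, 20825.1 and 20349.2 in Dscr-1 null and 13833.8 and 18590.6 in WT livers. Every mutant array was above both WT arrays and the double null arrays were the highest, but the 2 WT livers differed from one another by more than the higher of them differed from ApoE null. The differences against WT were 0.48 in double null (standard error 0.35, 95% interval −0.33 to 1.29, unadjusted p = 0.208), 0.25 in ApoE null (unadjusted p = 0.502) and 0.36 in Dscr-1 null livers (unadjusted p = 0.334). For double null against ApoE null it was 0.23, with a 95% interval of −0.57 to 1.04. The bright sets 1417495_x_at, 1455393_at and 1448734_at were higher in each mutant mean than in WT (0.27 to 0.65). The dim set 1448735_at ran the opposite way, at 16.8 and 40.6 in double null, 114.8 and 31.8 in ApoE null, 48.0 and 33.1 in Dscr-1 null and 128.4 and 105.3 in WT livers (−1.62 in double null, unadjusted p = 0.0182, adjusted p = 0.707).

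Tfrc, the iron uptake receptor, was lower in each mutant than in WT livers. Its brightest probe set had 393.7 and 374.5 in double null, 307.7 and 386.2 in ApoE null, 273.1 and 295.3 in Dscr-1 null and 501.9 and 581.1 in WT livers. All 6 mutant arrays were below both WT arrays, and the Dscr-1 null arrays were the lowest. The difference against WT was −0.89 in Dscr-1 null livers (standard error 0.35, unadjusted p = 0.0334, adjusted p = 0.982 from limma), −0.62 in ApoE null (unadjusted p = 0.110) and −0.48 in double null livers (unadjusted p = 0.207). The dimmer probe set 1422966_a_at was also lowest in Dscr-1 null livers (6.1 and 7.6) but was higher in double null (36.4 and 75.8) and ApoE null (70.1 and 51.8) than in WT livers (33.3 and 20.7), and 1422967_a_at scattered within each genotype. In double null against Dscr-1 null livers 1422966_a_at differed by 1.60 (unadjusted p = 0.00489, adjusted p = 0.735). The 3 control probe sets of Tfrc lay at 34.8 to 70.3, 2.1 to 27.7 and 1.9 to 33.4 on the 8 arrays.

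Among the copper pumps and ferroportin no liver difference passed. Slc40a1 had 2825.1 and 2603.0 in double null, 2304.3 and 2601.6 in ApoE null, 2558.0 and 2082.8 in Dscr-1 null and 2294.6 and 2703.4 in WT livers, a difference of 0.12 between double null and WT (95% interval −0.69 to 0.93). Atp7b, which loads ceruloplasmin with copper, had 108.2 and 106.5 in double null, 196.2 and 157.4 in ApoE null, 189.4 and 107.6 in Dscr-1 null and 99.1 and 132.5 in WT livers. Its ApoE null arrays were above the double null and WT arrays (−0.64 for double null against ApoE null, unadjusted p = 0.148, adjusted p = 0.903). Atp7a had 183.0 and 79.0 in double null, 140.8 and 72.5 in ApoE null, 59.2 and 83.0 in Dscr-1 null and 64.7 and 94.7 in WT livers, all overlapping. Its other probe set was higher in Dscr-1 null (93.6 and 101.4) than in WT livers (53.3 and 35.4), by 0.93 (unadjusted p = 0.0488, adjusted p = 0.9999). Heph lay at 3.4 to 21.5 on the 8 arrays, below their medians.

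Counted over the 23 member probe sets tested in liver, 0 passed the adjusted p in each of the 6 comparisons, where at most 0.00312% of all probe sets passed in either direction. At an unadjusted p under 0.05, double null against WT had 2 higher and 1 lower (3.9% and 2.17% of all probe sets) and ApoE null against WT 1 and 1 (3.97% and 2.47%). Dscr-1 null against WT had 1 and 1 (2.6% and 2.3%). Double null against ApoE null had 1 higher and 0 lower (3.45% and 3.12%), as did double null against Dscr-1 null (3.32% and 2.01%) and the interaction (2.62% and 2.86%). Sets whose 2 genotypes did not overlap numbered 8 higher and 3 lower in double null against WT (19.9% and 17.2% of all), 9 and 3 in ApoE null (17.5% and 15.7%) and 7 and 5 in Dscr-1 null against WT (16.8% and 16.5%). They numbered 4 and 2 in double null against ApoE null (16.8% and 15.4%) and 7 and 1 in double null against Dscr-1 null livers (18.1% and 15.7%). Over the 9 genes tested, double null livers exceeded WT in 7, ApoE null livers in 5 and Dscr-1 null livers in 6, where 52.1%, 51.3% and 49.7% of all probe sets did so. Their median differences were 0.48, 0.25 and 0.28, where those of all probe sets were 0.03, 0.02 and 0.00. The 3 comparisons share the WT arrays. Double null livers exceeded ApoE null livers in 6 genes (50.5% of all probe sets), with a median of 0.15, and Dscr-1 null livers in 8 (51.7%), with a median of 0.42.

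Macrophage markers were higher in livers without ApoE. The sum over 12 macrophage markers was 20053 and 13594 in double null, 13788 and 8557 in ApoE null, 6420 and 5491 in Dscr-1 null and 4884 and 6390 in WT livers. Mt1 and Mt2 were likewise higher on every array without ApoE than on the WT arrays. Slc31a2 was highest in double null but lowest in ApoE null livers. The sum over 9 measured hepatocyte markers was 196057 and 192278 in double null, 283843 and 199742 in ApoE null, 208084 and 200173 in Dscr-1 null and 173186 and 195400 in WT livers. The 3′ to 5′ signal ratio of Gapdh, a sign of RNA quality, ran from 1.91 to 3.08 over the 8 arrays and was higher on both double null arrays (2.72 and 3.08) than on both WT arrays (1.97 and 2.20). The same ratio of b-Actin was larger, at 3.15 to 7.84. It was 5.96 and 7.84 on the double null arrays and 3.15 and 5.50 on the WT arrays. On ApoE null array 1, which stood apart, it was 6.83. The part of these measures in the liver differences was not tested.

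**Figure D5:**
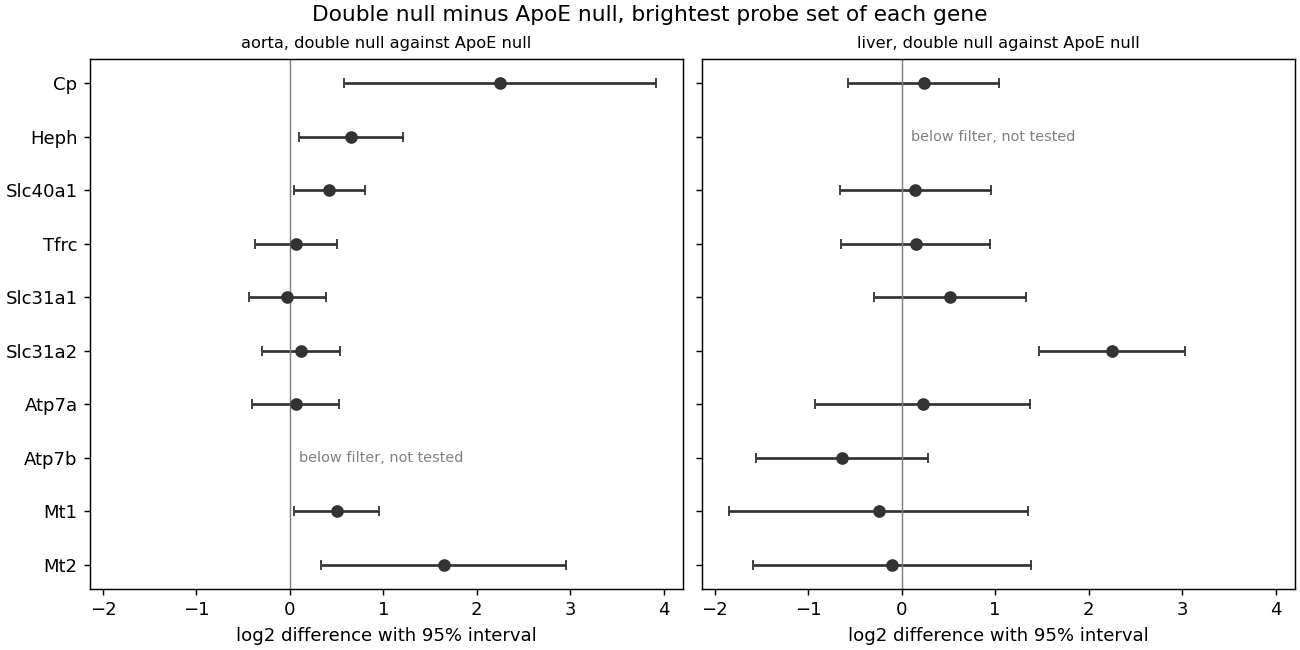
Log2 difference of double null minus ApoE null, with 95% intervals from limma, for the brightest probe set of each gene in aortic endothelial cells (left) and liver (right). In aortic cells Cp (2.25) and Mt2 (1.64) lie farthest from 0, and in liver Slc31a2 (2.25) does, while Cp (0.23) and Mt2 (−0.11) have intervals that span 0.

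Other genes of the 2 pathways were read from lists of 25 copper and 38 iron genes. In aortic cells, 8 of 19 copper genes tested were higher and 11 lower (median −0.03), and 14 of 25 iron genes were higher and 11 lower (median 0.00), with 0 passing the adjusted p. Hmox1, heme oxygenase, had 10.65 and 11.22 in double null and 9.99 and 10.06 in ApoE null cells, a difference of 0.91 (unadjusted p = 0.0112, adjusted p = 0.807 from limma). Slc39a14, a zinc and iron importer, differed by 0.56 (unadjusted p = 0.0372) and Steap1, of a family of metalloreductases, by 1.10 (unadjusted p = 0.0967). Steap1 had 7.89 and 9.50 in double null and 7.66 and 7.53 in ApoE null cells. On the lower side, Lox, the copper enzyme that crosslinks collagen, had 8.94 and 6.94 in double null and 9.40 and 9.17 in ApoE null cells (−1.34, unadjusted p = 0.0978), Bmp6 was at −0.83 and Pam, a copper enzyme of peptide amidation, at −0.71. In all 6 the difference was larger in run 2 than in run 1, as −2.22 against −0.46 for Lox.

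In liver, 0 genes of either list passed in any comparison. Lcn2, a siderophore-binding lipocalin and acute phase protein, had 812.1 and 458.8 in double null, 532.9 and 308.8 in ApoE null, 66.9 and 228.5 in Dscr-1 null and 6.5 and 53.8 in WT livers. Its differences against WT were 3.98 (unadjusted p = 0.000568, adjusted p = 0.658), 3.41 and 1.84. Hmox1 had 341.1 and 128.9 in double null, 211.2 and 157.5 in ApoE null, 111.0 and 88.4 in Dscr-1 null and 87.9 and 68.7 in WT livers, or 1.28, 1.08 and 0.30 against WT. Both genes were higher in each mutant than in WT livers without overlap. Mt3, another metallothionein, differed by 1.47, 0.92 and 1.19 in the same mutants, and overlapped with WT in the last 2 of them. Commd1, which takes part in copper export, had 254.1 and 244.8 in double null, 171.3 and 263.3 in ApoE null, 239.6 and 425.2 in Dscr-1 null and 362.5 and 559.5 in WT livers (−1.03 in ApoE null, unadjusted p = 0.0482, adjusted p = 0.771). Also lower than WT in ApoE null livers were Cd163, the haptoglobin-hemoglobin receptor (−1.39), and Slc39a8, a metal importer (−0.80), and in double null livers Bmp6 (−1.37), Loxl4 (−1.09) and Cox11 (−0.73). In Dscr-1 null livers Alas1, the first enzyme of heme synthesis, was at 0.66, Slc48a1 at −0.61, Pam at −1.41 and Loxl4 at −0.69. Of these genes only Slc48a1 did not overlap with WT. Pam had 5.1 and 125.9 in Dscr-1 null and 122.9 and 137.0 in WT livers, so its difference rests on Dscr-1 null array 1.

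Between double null and ApoE null livers, Alas1 had 4437.0 and 3823.9, against 2491.3 and 1951.0 (0.90, unadjusted p = 0.0659, adjusted p = 0.796 from limma). Hamp, the hormone hepcidin that closes ferroportin, had 15700.6 and 12950.3 against 3298.6 and 14106.3, where the low value is that of the array that stood apart, and Cd163 differed by 0.93. Loxl4 (−1.15), Loxl3 (−0.85) and Bmp6 (−0.87) were lower. Against Dscr-1 null livers, double null livers had Lcn2 at 2.14, Scara5, a ferritin receptor, at 1.16 and Hmox1 at 0.98, and Sco2 at −1.06, Steap3 at −1.18 and Loxl3 at −0.93. For the interaction the lowest p fell to Hamp (1.39), Slc25a28 (0.79) and Slc48a1 (0.60) on the positive side and Loxl3 (−1.48), Ltf (−2.12) and Steap3 (−1.44) on the negative one. Over the liver arrays Ltf ran from 3.8 to 109.1 and Steap3 from 3.7 to 53.4, with the low values under the array medians. The liver genes nearest to Cp in profile over the 8 arrays were Ywhab, Slc39a1, Phf7, Vps41 and Ssr1, at distances of 0.08 to 0.11 against a median of 0.50 over 14757 genes.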

How the data were processed

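Members and lists were chosen with earlier results of these data known. The deposited liver values are MAS5 intensity signals that the authors made with the GeneChip Operating Software and set to a mean signal of 100 per array. The deposited aortic values are log2. The sources used here give no normalization for them, though Transcriptome Analysis Console is named in the submitters' processing notes. For testing, 16 was added to liver signals before log2. No scaling was added. Probe sets of several genes (932), of none (9160) and 64 controls were not used as genes. Of the probe sets of 1 gene, 34741 of 34945 were matched by Entrez identifier. Each tissue was fitted on its own by lmFit and eBayes (limma 3.58.1, R 4.3.3), with a mean per genotype, leaving 2 residual degrees of freedom in aortic cells and 4 in liver. P-values were adjusted by Benjamini-Hochberg over 22927 aortic and 32005 liver probe sets, with a threshold of 0.05. A gene was represented by its brightest probe set. The named genes were all 10 members, the 3 other copper or iron genes of lowest p in each direction, the 5 nearest to Cp, and Apoe and Rcan1. Marker and other genes beside them (Lyz2, Dcn, Col3a1, Lcn2 and Alb in aortic cells) were chosen after their values were seen. Same-numbered aortic arrays share a run by their source names (correlation of deviations 0.297), so the run was also fitted as a block. In liver the correlations were −0.00155 to 0.0293 so the numbers were not taken as pairs. Promoters come from RefSeq (GRCm38.p6), where 8 of the 10 genes had 10 windows, cut to the 250 bases before the listed start. The fit was tested on simulated data for double null against ApoE null, with log2 differences of 1, 2 and 4 put in. In aortic cells it called 0 of 67, 41 of 67 and 51 of 66 of these, in that order, with 5 false calls. In liver it called 0 of 67, 1 of 67 and 44 of 66, with 1 false call. Arrays give no depth, and their number limits the precision.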

Additional observations from a re-analysis of the deposited data

Results flagged for a closer look

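The brighter probe set of Mt1 differed in opposite directions in the 2 tissues, on every array. Between double null and ApoE null samples it differed by 0.50 on the log2 scale in aortic endothelial cells, with both double null arrays above both ApoE null arrays, and by −0.25 in liver, with both double null arrays below both ApoE null arrays. Of all probe sets, 15.8% had the first order in aortic cells and 15.4% the second in liver. The pattern was found by searching the member probe sets tested in both tissues, and the signal of this set cannot be assigned to Mt1 alone. The difference between the tissues was not tested, and neither difference passed by limma (adjusted p = 1 and 0.992). No genotype has over 2 arrays, so no array could be tested as an outlier within its group.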

How the results depend on the processing

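For the 47 differences reported, 345 of 347 values under another offset, filter, normalization, set of arrays or test kept their direction and their side of the threshold. The exceptions, both small, were Slc31a1 in aortic cells (0.0078) and Slc40a1 in ApoE null against WT livers (0.13) after quantile normalization. Another filter, the replicate block, the set of arrays and the methods' test leave the size of a difference as it is. For Cp in aortic cells it was 2.25 under each filter, the block and the methods' test. No member passed in the main fit, so under these settings a value could change only by passing. With 1 array left out, 308 of 340 values kept their direction and their side of the threshold. With another probe set of the same gene 40 of 67 kept the direction. The number of member probe sets that passed in aortic cells was 0 to 10 with 1 array left out (10 without double null array 1, 8 without double null array 2) and the difference of Cp 1.27 to 3.23. The count at an unadjusted p under 0.05 in aortic cells, 11, was 3 to 12 with 1 array left out and 2 by the methods' test. In aortic cells, where same-numbered arrays share a run, the replicate block left this count at 11. In liver it moved a count by over 1.5 times for Dscr-1 null against WT alone, to 1 where it was 2, and it changed no call. With 1 array left out, the count for Dscr-1 null against WT, 2, ran from 0 to 3, and was 0 without either WT array, Dscr-1 null array 2 or either double null array. The count for double null against WT, 3, ran from 1 to 3, and was 1 without WT array 1 or either double null array. The counts of 1 for double null against ApoE null and against Dscr-1 null ran from 1 to 3, with 3 without ApoE null array 2 and Dscr-1 null array 2, in that order, and the interaction from 1 to 2. The liver counts moved by over 1.5 times also with an offset of 1 (1 where it was 2, ApoE null against WT) or 64 (2 where it was 1, double null against Dscr-1 null and the interaction), with the stricter filter (4 where it was 2, Dscr-1 null against WT, and 2 where it was 1, double null against Dscr-1 null and the interaction) and by the methods' test (2 where it was 1, double null against ApoE null and Dscr-1 null).

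Directions that turned when 1 array was left out had these ranges. In aortic cells they were −0.079 to 0.21 for Atp7a, −0.13 to 0.083 for Slc31a1 and −0.060 to 0.19 for Tfrc. Between Dscr-1 null and WT livers they were −0.36 to 0.097 for Atp7a, −0.081 to 0.65 for Atp7b, −0.087 to 0.23 for Slc31a1, −0.73 to 1.29 for Mt1, −0.71 to 1.34 for Mt2 and −0.26 to 0.038 for Slc40a1. Between ApoE null and WT livers they were −0.095 to 0.73 for Atp7a and −0.14 to 0.093 for Slc40a1. For double null against WT livers they were −0.27 to 0.10 for Atp7b and −0.039 to 0.23 for Slc31a1. For double null against ApoE null livers they were −0.31 to 0.76 for Atp7a, −0.46 to 0.25 for Mt2 and −0.0080 to 0.31 for Tfrc.

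Other probe sets of the same gene gave the opposite direction as follows, and the cause was not tested. In aortic cells they gave −0.12 for Atp7a, 0.000575 for Slc31a1 and −0.23 for Mt1. Between Dscr-1 null and WT livers they gave −1.24 for Cp, 0.93 for Atp7a, −0.30 for Slc31a1 and 0.42 for Tfrc. Between ApoE null and WT livers they gave −0.38, −0.15 and −0.74 for Cp, 0.16 for Slc31a1 and 0.84 and 0.63 for Tfrc. For double null against WT livers they gave −0.074, −0.30 and −1.62 for Cp, 0.10 for Atp7b, −0.15 for Slc31a1, 0.71 for Tfrc and −0.77 for Slc40a1. For double null against ApoE null livers they gave −0.40 and −0.88 for Cp, −0.014 for Atp7a, −0.31 for Slc31a1, −0.14 and −0.91 for Tfrc and −0.37 for Slc40a1. With 2 arrays a genotype, signal over background limits the liver values of Slc31a2 in ApoE null mice and of the dim probe sets.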
